A study of Mus musculus with 6 samples.

Results

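The genes described here mark the layers of the mouse cerebral cortex. They were 31 symbols listed as markers of upper layers (7 genes), layer 4 (5), layer 5 (6), layer 6 (5), the subplate (4) or several layers (4), and all 31 were among the 23366 genes of the expression table. RNA was sequenced from the cortex of 6 C57BL/6 background mice, 1 library per mouse. Depleted mice (A4, A5 and A6) carried CX3CR1-CreERT2+/– and iDTR+/–, and control mice (A1, A2 and A3) were littermates with CX3CR1-CreERT2+/– and without iDTR. The CX3CR1 promoter is active in microglia and in other mononuclear phagocytes. Tamoxifen was given to both genotypes, and diphtheria toxin, which kills cells that bear the iDTR receptor, was given on 3 consecutive days. Tissue was taken 10 days after depletion, a time by which the study describes microglia as repopulated. Whether the control mice of the sequencing received the toxin is not stated, so genotype and toxin cannot be told apart, and the age of these mice is not given. The labels name the tissue as cortex and the study's text as frontal cortex. How much of the somatosensory area, where layer 4 is thick, was in the sample is not given. Levels are FPKM (fragments per transcript length and sequencing depth, scaled between libraries), so they can be set side by side between genes, and fold changes are on the log2 scale of FPKM + 1, depleted minus control.

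The cortex is built of layers of projection neurons that differ in birth order, in their targets and in the transcription factors they keep into adulthood. Upper-layer neurons send axons mainly to other cortical areas, layer 4 neurons receive sensory input from the thalamus, layer 5 holds the neurons that project to the brainstem and spinal cord, and layer 6 holds those that project back to the thalamus. The subplate is a thin sheet of early-born neurons under layer 6. The study examined damage to layer 4 in particular, so the comparison asks whether RNA of layer 4 genes differed between the groups and whether that of the other layers did.

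None of the 31 layer genes passed an adjusted p of 0.1 (limma on log2(FPKM + 1), Benjamini-Hochberg over 14385 genes), where 4 of all genes tested did (0.0278%). The study tested raw counts with DESeq at the same adjusted threshold and reported far more genes for this tissue. Only FPKM values were tested here, so the lack of a call does not show that a layer gene was unchanged. The 3 members with the largest differences were all layer 4 genes, and they did not share a direction: Rspo1 and Scnn1a were lower in depleted mice and Endou was higher. These 3 were the members with an unadjusted limma p under 0.05 and also those whose groups did not overlap, which is 9.68% of the members. Of all genes tested, 10.5% had an unadjusted p under 0.05 and 17.6% did not overlap, so the shares of the layer genes were near or below the background. By direction, 2 members were lower and 1 higher, while 5.74% of all genes were lower and 4.79% higher at an unadjusted p under 0.05, and 9.38% lower and 8.21% higher without overlap. Without A6 the count at an unadjusted p under 0.05 was 5 (13.1% of all genes), with the layer 5 genes Crym and Etv1 added, and the count without overlap was 5 without A3 (24.7% of all genes), 11 without A5 (32.7%) and 8 without A6 (31.5%). Of the 31 genes 24 were lower and 7 higher in depleted mice, with a median log2 fold change of -0.08, against 52.0% lower and a median of -0.01 over all genes tested. In tissue RNA, fewer cells of a type and less RNA per cell cannot be told apart.

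The limits on precision differed by gene. The 95% interval of the log2 fold change included 0 in 28 members, lay between -1 and 1 in 29 and lay between -0.5 and 0.5 in 21. Outside layer 4, 19 of 26 intervals lay between -0.5 and 0.5, the lowest bound was -0.78 (Mdga1) and the highest 0.56 (Cplx3).

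**Figure D1:**
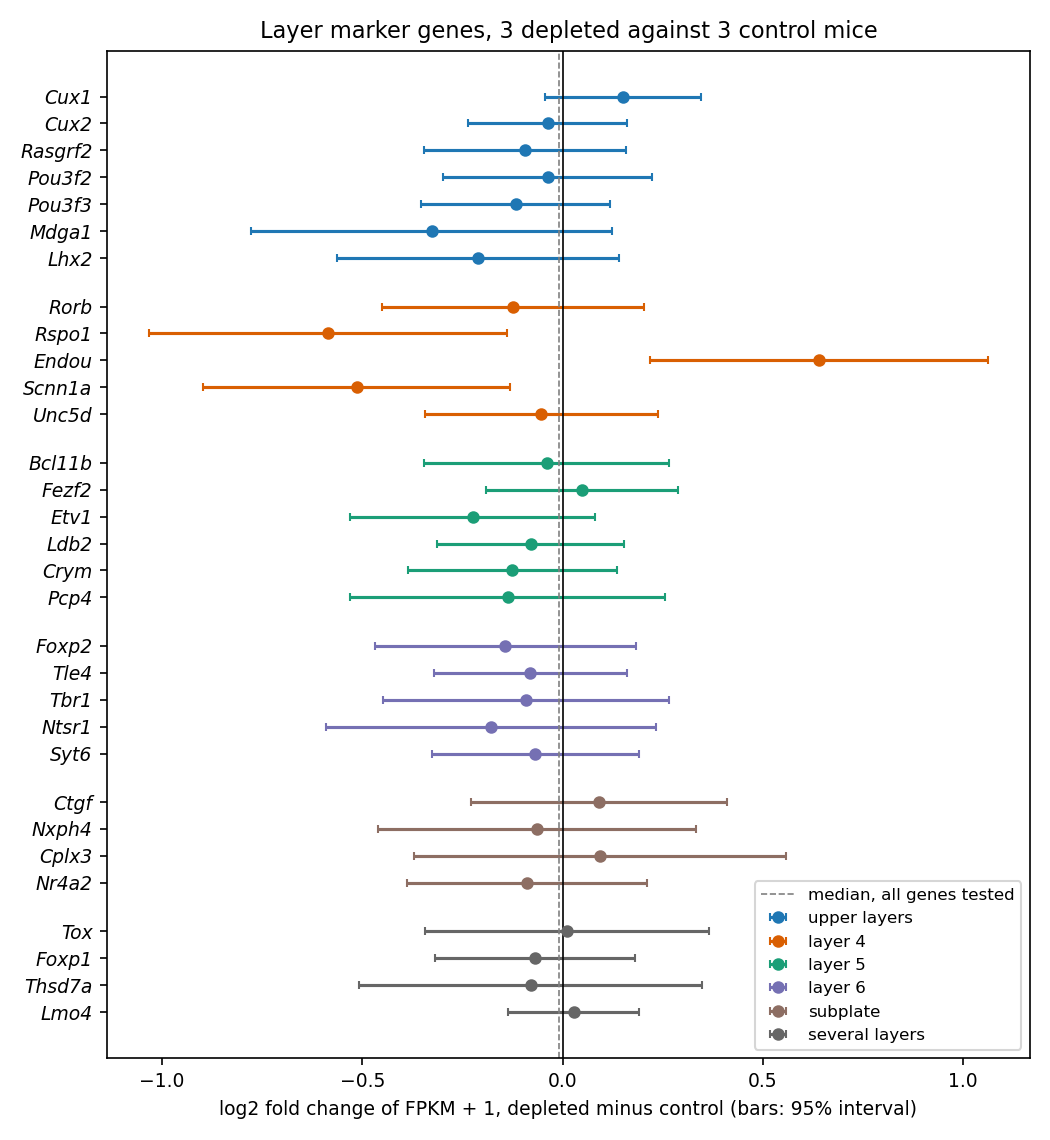
Log2 fold change of FPKM + 1 (x axis, depleted minus control, 3 mice each) of the 31 layer genes, grouped and coloured by layer; bars are 95% intervals and the dashed line is the median of all genes tested. The intervals of Rspo1 and Scnn1a lie below 0, that of Endou lies above 0, and the other 28 include 0.

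Depleted mouse A4 stood apart from the other 5 in many layer genes, so values are given with and without it. It alone had the lowest value of the 6 mice in 19 of the 31 members (61.3%), while it was lowest in 28.0% of all genes tested, A5 and A6 in 17.1% and 19.2%, and A1, A2 and A3 in 11.0%, 12.3% and 11.2%. Y-linked genes summed to 5.56 FPKM in A4 against at most 0.16 FPKM in the others, although the methods describe groups matched for sex. Xist, the RNA that silences an X chromosome in females, did not follow the reverse pattern, at 30.86 FPKM in A4, 4.74 FPKM in control mouse A3 and between 38.14 and 46.66 FPKM in the other 4 mice. Immediate early genes, which neurons switch on with activity, summed to 538 FPKM in A4 and to between 153 and 241 FPKM in the other mice, and 8 of 10 were highest in A4, with log2 fold changes over the group from Nr4a3 (-0.34) to Egr2 (0.82). Of all 14385 genes tested, A4 was highest in 3860 and lowest in 4031, so it was often extreme in both directions. The part of sex or activity in the values of A4 was not tested. Without A4, 19 members were lower and 12 higher, with a median log2 fold change of -0.0038 against -0.0083 over all genes, and 3 members had an unadjusted p under 0.05 (13.2% of all genes). Leaving out another depleted mouse did not bring the medians to 0. Without A5 they were -0.16 for upper layers, -0.24 for layer 4, -0.09 for layer 5, -0.14 for layer 6 and 0.07 for the subplate. Without A6 they were -0.11, -0.12, -0.20, -0.21 and 0.12 in the same order.

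**Figure D2:**
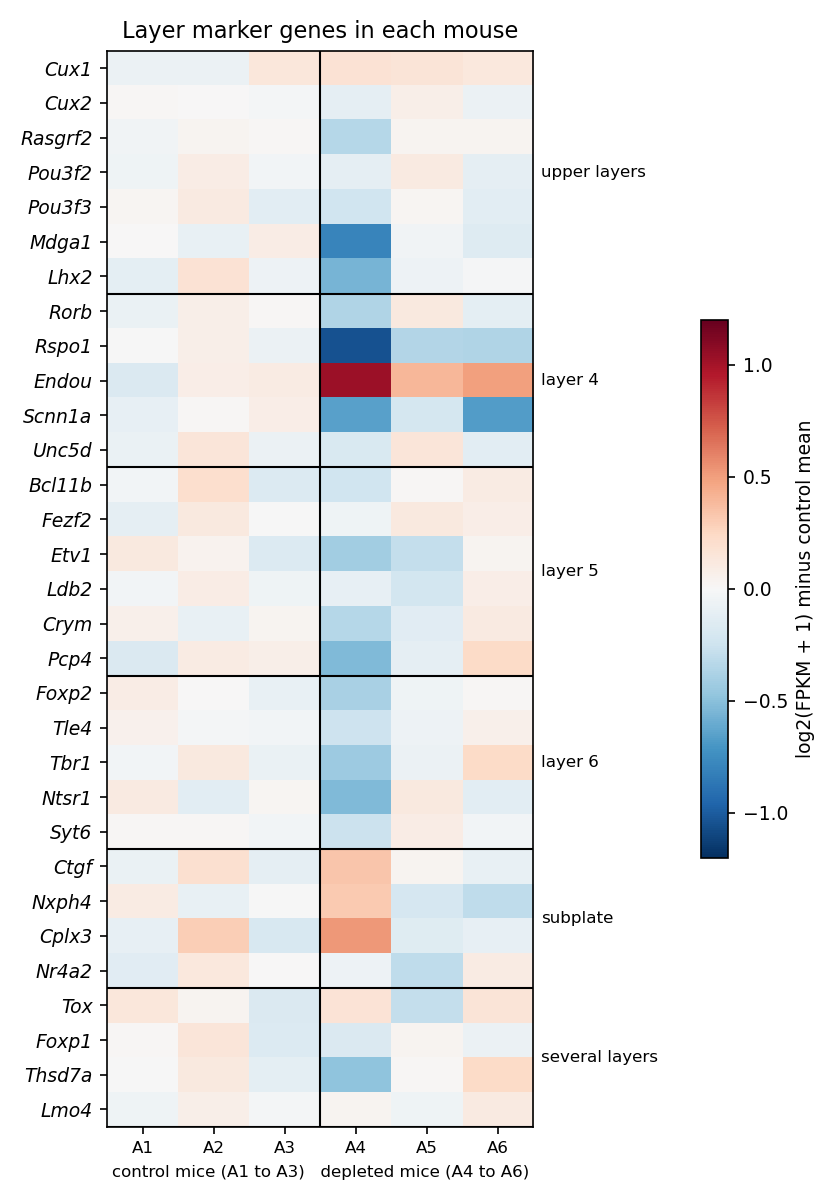
Each layer gene (rows, by layer) in each mouse (columns) as log2(FPKM + 1) minus the mean of the control mice; blue is lower and red higher. The A4 column is blue in most rows. It is reddest in Endou and also red in Ctgf, Nxph4 and Cplx3 of the subplate and, more faintly, in Cux1, Tox and Lmo4. Rspo1, Scnn1a and Endou keep 1 colour over all 3 depleted mice. So do the upper-layer genes Cux1, Mdga1 and Lhx2, the last of these only faintly in A5 and A6.

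Layer 4 was represented by Rorb, Rspo1, Endou, Scnn1a and Unc5d. Rorb encodes an orphan nuclear receptor that marks layer 4 neurons and takes part in the formation of the barrels. In control mice A1, A2 and A3 its level was 4.65, 5.28 and 5.03 FPKM, and in depleted mice A4, A5 and A6 it was 3.65, 5.47 and 4.50 FPKM. The depleted mice spanned the whole control range, with A5 the highest mouse of all and A4 the lowest. The log2 fold change was -0.12 (SE 0.14, 95% interval -0.45 to 0.20) and -0.0038 without A4. Unc5d, a netrin receptor family member of layer 4 neurons, was at 6.65, 7.95 and 6.67 FPKM in control and 6.13, 7.93 and 6.39 FPKM in depleted mice. The groups overlapped almost fully, with a log2 fold change of -0.05 (95% interval -0.34 to 0.24).

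Rspo1 encodes R-spondin 1, a secreted protein that strengthens Wnt signalling. It was at 4.72, 5.04 and 4.46 FPKM in the control group and 1.77, 3.50 and 3.48 FPKM in the depleted group. Every depleted mouse was below every control mouse, with A4 the farthest. The means were 4.74 ± 0.291 and 2.92 ± 0.993 FPKM (SD, n = 3 each), a difference of -38.5%. The log2 fold change was -0.59 (SE 0.20, 95% interval -1.03 to -0.14), with an unadjusted limma p of 0.016 and an adjusted p of 0.396. Without A4 the log2 fold change was -0.35.

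Scnn1a encodes the alpha subunit of the epithelial sodium channel, and its promoter is used to drive Cre in layer 4 neurons. It was at 1.99, 2.24 and 2.38 FPKM in control and 1.03, 1.76 and 1.01 FPKM in depleted mice, the lowest level of the 31 genes. Here A4 and A6 were low together and A5 lay nearest to the control mice, without overlap. The means were 2.20 ± 0.198 and 1.27 ± 0.427 FPKM (SD, n = 3 each), a difference of -42.5%. The log2 fold change was -0.51 (SE 0.17, 95% interval -0.90 to -0.13), the adjusted limma p was 0.393, and the log2 fold change without A4 was -0.44. At such a low level the added 1 FPKM shrinks the fold change, and with 0.1 FPKM added instead it was -0.79.

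Endou, a uridylate-specific endoribonuclease, was the layer 4 gene that went the other way. Its level was 2.02, 2.59 and 2.63 FPKM in control and 5.93, 3.48 and 3.79 FPKM in depleted mice. All 3 depleted mice were above all control mice, and A4 was the highest. The means were 2.41 ± 0.341 and 4.40 ± 1.33 FPKM (SD, n = 3 each), a difference of 82.3%. The log2 fold change was 0.64 (SE 0.18, 95% interval 0.22 to 1.06), with an unadjusted limma p of 0.0079, the lowest of the 31 genes, and an adjusted p of 0.378. Without A4 it was 0.45.

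**Figure D3:**
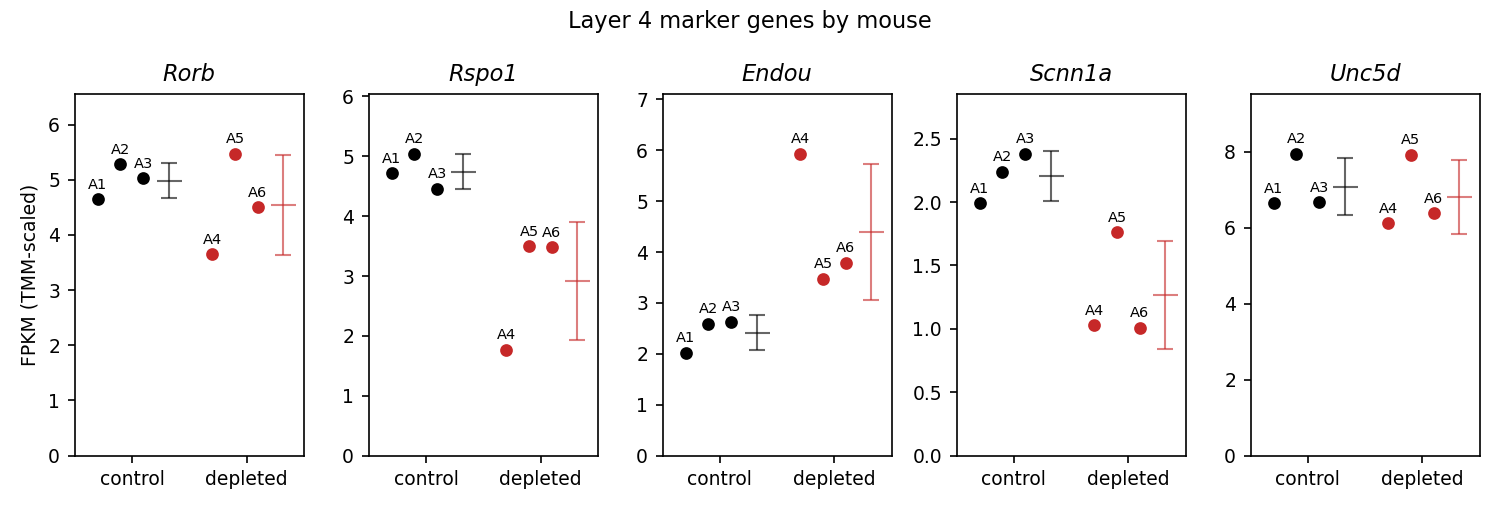
FPKM (y axis, from 0) of the 5 layer 4 genes in each control mouse (black) and depleted mouse (red), with the mean and SD of each group beside the points. Rspo1 and Scnn1a do not overlap and are lower in depleted mice, Endou does not overlap and is higher, and Rorb and Unc5d overlap.

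Set against Rorb in the same mouse, Rspo1, Scnn1a and Endou kept their directions. The ratio of Rspo1 to Rorb was 0.952 ± 0.0642 in control and 0.633 ± 0.144 in depleted mice (SD, n = 3 each). The ratio of Scnn1a to Rorb was 0.442 ± 0.0272 and 0.276 ± 0.0489. That of Endou to Rorb was 0.483 ± 0.0448 and 1.03 ± 0.521. None of these ratios overlapped between the groups, while that of Unc5d to Rorb overlapped (1.42 ± 0.0902 and 1.52 ± 0.142) and had the higher mean in depleted mice, unlike Unc5d itself. Relative to Rorb, then, Rspo1 and Scnn1a were lower and Endou higher in every depleted mouse. These genes already did not overlap on their own and Rorb did, so the ratios are not a separate result. None of the 5 genes shared exonic bases with another annotated gene.

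The same values were taken for 4 layer 4 markers that are not among the 31. Whrn, which encodes the scaffold protein whirlin, was at 10.98, 10.57 and 11.70 FPKM in control and 5.28, 8.51 and 9.09 FPKM in depleted mice. It did not overlap and was lowest in A4, with a log2 fold change of -0.52 (95% interval -0.91 to -0.12) and an adjusted limma p of 0.396. Plcxd2 (-0.20), Kcnh5 (-0.06) and Rora (0.05) overlapped between the groups. Of the 9 layer 4 genes in all, 3 had intervals below 0, 1 had an interval above 0 and 5 had intervals that included 0. An interval without 0 is the same as an unadjusted p under 0.05, which 5.74% of all genes reached below 0 and 4.79% above 0, and the 9 genes were listed with results known, so nothing is read from that count.

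For the promoters, 22 of the 31 genes had an entry in the RefSeq table (GRCm38.p6). The search was for AGGTCA or its reverse complement TGACCT, the half-site bound by ROR receptors such as the product of Rorb. In the 250 bases before the start it was found in 3 of the 22 (13.6%: Cplx3, Pcp4 and Syt6) and in 13.8% of all 27025 promoters, so its share in layer genes was close to that of all promoters. Rspo1, chr4:124986180-124986429 on the plus strand, is shown as the layer 4 gene with the lowest log2 fold change, and Pcp4, chr16:96467356-96467605 on the plus strand, as the layer gene with the highest level. Capitals mark the half-site, which the Rspo1 window did not hold. A match is a string of letters and not a measured binding site.
Rspo1: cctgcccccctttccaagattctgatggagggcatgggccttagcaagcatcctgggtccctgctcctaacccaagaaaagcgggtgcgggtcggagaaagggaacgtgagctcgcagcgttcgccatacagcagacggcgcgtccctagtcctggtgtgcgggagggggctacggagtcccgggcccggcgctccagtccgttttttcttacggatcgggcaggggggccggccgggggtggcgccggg
Pcp4: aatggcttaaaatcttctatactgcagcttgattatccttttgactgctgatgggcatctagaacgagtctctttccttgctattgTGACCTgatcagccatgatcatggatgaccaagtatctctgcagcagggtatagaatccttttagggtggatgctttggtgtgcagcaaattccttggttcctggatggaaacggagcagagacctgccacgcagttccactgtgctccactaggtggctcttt

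The upper-layer genes had a median log2 fold change of -0.09, or -0.0024 without A4. Cux1 and Cux2, homeobox factors of upper-layer neurons, differed little. Cux2 was at 14.77, 14.66 and 14.35 FPKM in control and 13.48, 15.34 and 13.83 FPKM in depleted mice, for a log2 fold change of -0.04 (95% interval -0.24 to 0.16). Cux1 was the only upper-layer gene with a higher mean in depleted mice, at 23.38, 23.37 and 27.11 FPKM in control and 27.80, 27.40 and 26.96 FPKM in depleted mice. Control mouse A3 lay within the depleted range, and the log2 fold change was 0.15 (95% interval -0.04 to 0.35). Cux1 had the lowest adjusted limma p outside layer 4, at 0.563.

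In Mdga1, Lhx2 and Rasgrf2 the difference rested largely on A4. Mdga1, a cell-surface protein of the immunoglobulin superfamily, was at 4.28, 3.96 and 4.59 FPKM in control and 2.05, 4.13 and 3.74 FPKM in depleted mice. The log2 fold change was -0.33 (95% interval -0.78 to 0.12), and -0.10 without A4. Lhx2, a LIM homeobox factor, was at 16.12, 19.85 and 16.79 FPKM in control and 11.59, 16.73 and 17.31 FPKM in depleted mice, with -0.21 and, without A4, -0.04. Rasgrf2, an exchange factor for Ras, was at 24.33 FPKM in A4 and between 30.18 and 31.79 FPKM in the other 5 mice. A4 was thus the lowest mouse in each of these genes, and A5 and A6 were at or near the control range. The POU factors Pou3f2 and Pou3f3, which act in the production of upper-layer neurons, had log2 fold changes of -0.04 and -0.12. Pou3f3 was lowest in A4, and Pou3f2 was at 5.12 FPKM in both A4 and A6, with a log2 fold change of -0.0011 without either of them.

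Layer 5 had a median log2 fold change of -0.10, and 0.02 without A4. Fezf2 and Bcl11b, the zinc finger factors that specify neurons projecting to the spinal cord, overlapped between the groups. Fezf2 was at 7.75, 9.23 and 8.39 FPKM in control and 8.13, 9.21 and 8.99 FPKM in depleted mice, for a log2 fold change of 0.05 (95% interval -0.19 to 0.29). Bcl11b was at 9.36, 11.17 and 8.44 FPKM in control and 7.97, 9.73 and 10.38 FPKM in depleted mice, with -0.04 (95% interval -0.35 to 0.27). Both intervals leave room for a difference in either direction. Etv1, an ETS factor of layer 5, had the lowest log2 fold change of this layer, -0.22 (95% interval -0.53 to 0.08). It was at 17.75, 16.81 and 14.35 FPKM in control and 11.95, 13.12 and 16.59 FPKM in depleted mice, so that A4 and A5 were below every control mouse and A6 was not.

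Pcp4, a small calmodulin-binding protein, had the highest level of the 31 genes. It was at 579.46, 699.76 and 684.40 FPKM in control and 452.08, 604.05 and 763.59 FPKM in depleted mice. The depleted mice held both the lowest and the highest value of the 6, and the log2 fold change was -0.14 (95% interval -0.53 to 0.26). Pcp4 shared 23.7% of its exonic bases with Igsf5 on the same strand, which was listed at a mean of 0.112 FPKM. Crym, a thyroid hormone binding protein, had the same order of depleted mice (54.37, 62.88 and 74.71 FPKM) around a control range of 64.92 to 72.28 FPKM. Ldb2, a cofactor of LIM homeobox proteins, was lowest in A5, and its log2 fold change was -0.08 (95% interval -0.31 to 0.15).

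All 5 layer 6 genes had a lower mean in depleted mice and all 5 were lowest in A4. The median log2 fold change was -0.09, and 0.0015 without A4. Tbr1, a T-box factor that specifies layer 6 neurons, was at 23.35, 26.06 and 22.61 FPKM in control and 17.45, 22.81 and 28.23 FPKM in depleted mice. A6 was the highest mouse and A4 the lowest, and the log2 fold change was -0.09 (95% interval -0.45 to 0.26). Ntsr1, a neurotensin receptor of neurons that project to the thalamus, was at 3.30, 2.67 and 3.06 FPKM in control and 1.77, 3.35 and 2.67 FPKM in depleted mice. Its log2 fold change was -0.18 (95% interval -0.59 to 0.23), the lowest of the layer, and -0.0021 without A4. The forkhead factor Foxp2 (-0.14), the corepressor Tle4 (-0.08) and the synaptotagmin Syt6 (-0.07) followed the same pattern, with A5 and A6 close to the control mice.

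The subplate genes went against the other layers in A4. Cplx3, a complexin of the synaptic release machinery, was at 6.27, 8.55 and 5.85 FPKM in control and 10.23, 6.05 and 6.29 FPKM in depleted mice. Nxph4, a neurexophilin, was at 4.52, 3.84 and 4.14 FPKM in control and 5.42, 3.50 and 3.17 FPKM in depleted mice. Ctgf, a matricellular protein, was at 7.77, 9.57 and 7.59 FPKM in control and 10.65, 8.48 and 7.70 FPKM in depleted mice. In each of these 3 genes A4 was the highest mouse, and A5 and A6 were within or below the control range. Over the layer the log2 fold changes ran from -0.09 to 0.09 with all mice, and the median went from 0.01 to -0.11 without A4. Nr4a2, a nuclear receptor of subplate and layer 6 neurons that is also induced by activity, was not highest in A4 (8.66 FPKM, within the control range of 8.22 to 10.05 FPKM). Ctgf shared 23.2% of its exonic bases with Gm15270 on the opposite strand, and whether the counting used strand is not stated.

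The genes of several layers had a median log2 fold change of -0.03. Lmo4, a LIM-only protein, had the narrowest interval of the 31 genes, with a log2 fold change of 0.03 (95% interval -0.14 to 0.19) at levels of 124.75 to 139.40 FPKM. The forkhead factor Foxp1 (-0.07) and the HMG-box factor Tox (0.01) overlapped between the groups. Thsd7a, a thrombospondin domain protein, was at 2.20 FPKM in A4, 3.50 FPKM in A5 and 4.22 FPKM in A6, around a control range of 3.12 to 3.85 FPKM.

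The median of log2(FPKM + 1) against the control mean showed how the depleted mice differed among themselves. It was -0.24, 0.03 and -0.07 in A4, A5 and A6 for upper layers and -0.36, 0.11 and -0.13 for layer 4. For layer 5 it was -0.29, -0.12 and 0.09, and for layer 6 -0.39, -0.05 and 0.02. For the subplate it was 0.32, -0.17 and -0.09. A4 was therefore below 0 in the 4 cortical layer groups and above 0 in the subplate, while A5 and A6 differed in sign in upper layers, layer 4, layer 5 and layer 6. The medians of all genes tested were between -0.01 and 0.01 in every mouse.

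**Figure D4:**
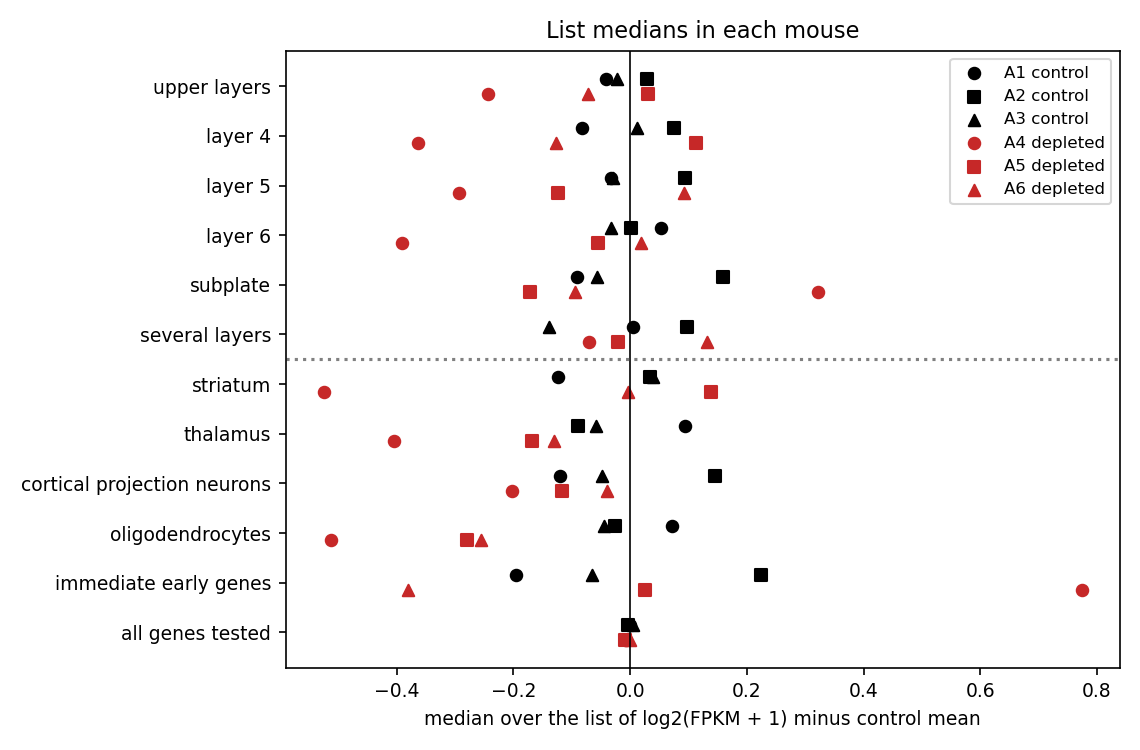
Median over each gene list of log2(FPKM + 1) minus the control mean (x axis) in each control mouse (black) and depleted mouse (red), with layer groups above the dotted line and other lists below it. A4 is the lowest mouse in upper layers and layers 4, 5 and 6 and the highest in the subplate, and the 2 other depleted mice lie between -0.17 and 0.13 in all 6 layer groups.

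A second set of 29 layer markers outside the 31 gave 20 lower and 9 higher, with a median log2 fold change of -0.06. None passed an adjusted p of 0.1, and 4 lower and 1 higher had an unadjusted limma p under 0.05, which is 17.2% of them against 10.5% of all genes. The same 17.2% did not overlap between the groups, against 17.6% of all genes. Besides Whrn, these were Lamp5 of upper layers (-0.41), Lpar1 (-0.31), Sulf1 (-0.30) and Sla (0.33) of layer 6 and the subplate, where Inpp4b had the lowest value (-0.34, 95% interval -0.76 to 0.07). The layer 5 markers ran only from Tshz2 (-0.10) to Bcl6 (0.20), and their median was -0.0098. Lamp5, a lysosomal membrane family member, was at 91.81, 99.48 and 90.94 FPKM in control and 54.68, 79.35 and 80.33 FPKM in depleted mice, so all depleted mice were lower. Lpar1, a lysophosphatidic acid receptor, is also made by oligodendrocytes, and 7 of 7 oligodendrocyte markers were lower in depleted mice, summing to between 2543 and 2612 FPKM against 2904 to 3159 FPKM in control mice, from Opalin (-0.48) to Mobp (-0.20). Wfs1, an endoplasmic reticulum protein of upper layers, was the reverse of Lamp5 in A4, at 74.01 FPKM against 35.83 to 42.03 FPKM in the other mice. The part of oligodendrocyte RNA in the Lpar1 value was not tested.

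Markers of cortical projection neurons were present in all mice, as the tissue label states, with 8 of 8 tested and sums of 1791 to 2092 FPKM in control and 1620 to 1767 FPKM in depleted mice. In that list Nrgn, the calmodulin-binding neurogranin, was the lowest (-0.33) and Neurod2, a neuronal transcription factor, the highest (0.28), and neither passed the adjusted limma threshold. Markers of neighbouring regions were read beside the layers because dissections can differ. The striatum also expresses Foxp1, Foxp2 and Bcl11b, and its markers summed to 371 FPKM in A4 and to between 399 and 465 FPKM in the other mice, and 8 of 9 were lowest in A4, with log2 fold changes from Adora2a (-0.39) to Ppp1r1b (0.13). The thalamus also expresses Foxp2 and Rorb, and its markers summed to 121 to 153 FPKM in control and 111 to 132 FPKM in depleted mice, 8 of 9 with a lower mean, from Ramp3 (-0.35) to Calb2 (0.12). All 5 hippocampal markers tested had a lower mean, from C1ql2 (-0.38) to Prox1 (-0.09). Choroid plexus markers summed to 168 to 324 FPKM in control and 46.4 to 70.9 FPKM in depleted mice, and the lowest log2 fold change was that of Ttr, the thyroid hormone transporter (-1.91). The part of the tissue taken in the layer gene values was not tested.

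Glial and vascular lists gave the rest of the tissue. Microglial markers summed to 91.5 to 111 FPKM in control and 93.7 to 123 FPKM in depleted mice, from Fcrls (-0.90) to Aif1 (0.74). Astrocyte markers ran from Aldh1l1 (-0.21) to Gfap (1.00), and Gfap was at 300.3 FPKM in A4 against 64.48 to 120.13 FPKM in the other mice. Interneuron markers summed to 451 FPKM in A4 and to between 540 and 573 FPKM in the others, from Sst (-0.29) to Vip (0.16). Pan-neuronal markers summed to 2074 FPKM in A4 and to between 2260 and 2531 FPKM in the others, from Nefl (-0.28) to Nefm (0.02). Endothelial and mural markers summed to 71.8 to 74.9 FPKM in control and 66.8 to 74.9 FPKM in depleted mice, and those of the meninges to 52.0 to 57.7 FPKM and 37.8 to 48.7 FPKM, with Igf2 the lowest (-0.66) and Dcn the highest (0.03). In the endothelial and mural list Vtn was lowest (-0.37) and Pecam1 highest (0.34). A4 was thus low in cortical, striatal and interneuron lists alike and high in Gfap and immediate early genes, and which of these goes with its layer gene values was not tested.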

How the data were processed

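Cortical RNA of 3 control and 3 depleted mice was analysed, with groups taken from the labels. The authors made poly(A) TruSeq libraries, sequenced 75 bp paired-end reads, aligned with TopHat, quantified known transcripts with RSEM and deposited TMM-scaled FPKM values with 2 decimals. The submitters' processing notes name mm9 and DESeq; versions and annotation are not given in the sources used here. Fragments behind the values, estimated from the spacing of low values, numbered 14.6 M for A1, 20.3 M for A2, 18.3 M for A3, 13.7 M for A4 and 11.2 M for A6, and 3.55 to 10.7 M for A5, where the spacing gave no single answer. The fragment length that scored best was 0 in every library, the edge of the range searched, so these numbers are rough. On these estimates every depleted library was shallower than every control library, although A4 lay close to A1. Genes at 0 FPKM numbered 5903 in A4, within the control range of 5834 to 6033, and 7144 in A5 and 6849 in A6. A5 and A6 were thus apart from the control libraries by both measures, so depth and group cannot be told apart.

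Genes averaging 0.5 FPKM or more over the 6 mice (14385) were tested on log2(FPKM + 1) with limma 3.58.1 in R 4.3.3 (lmFit, eBayes with trend), two-sided, and called at a Benjamini-Hochberg adjusted p under 0.1. The added 1 FPKM makes the fold changes of low genes too small. P-values measure the spread between single mice. The members, the lists and the naming rule (all members and, of each other list, the genes with the lowest and the highest fold change) were chosen with earlier results of these data known. Plcxd2, Kcnh5, Lpar1 and Sulf1 (on those lists) and Xist were named after their values were seen. The Y-linked genes that were summed (Ddx3y, Eif2s3y, Kdm5d and Uty) were on none of the lists and were also taken after values were seen. A tie counted for no mouse as the lowest or highest. Exon overlaps and GC content came from GENCODE M21, where 23004 of 23366 symbols matched. Alternatives were another pseudocount, filter, scaling or threshold, other eBayes settings, array weights, removal of each library's GC trend and leaving out each mouse. The fit was tested on simulated data. Python 3.11.15, numpy 2.4.6, pandas 2.3.3 and matplotlib 3.10.9 were used.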

Additional observations from a re-analysis of the deposited data

How the results depend on the processing

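No member passed the adjusted threshold under any of the 16 other settings or at a threshold of 0.05, and the lowest adjusted p of any member was 0.194 (Scnn1a without A5). The count at an unadjusted p under 0.05 ran from 2 to 5 with 1 mouse left out, and the count without overlap from 3 to 11, where fewer mice make overlap rarer. Endou kept an unadjusted p under 0.05 in all 16 settings, and Rspo1 and Scnn1a in 15 each (0.055 without A2 and 0.0549 without A3). 13 members kept their direction in all 16 settings. With array weights the log2 fold changes of Pou3f2 (0.0041), Unc5d (0.011), Bcl11b (0.0202), Thsd7a (0.0174) and Tox (-0.0681) changed sign. With GC correction those of Cux2 (0.0142), Nxph4 (0.075) and Tox (-0.022) did. With 1 mouse left out, these ranges crossed 0: Rasgrf2 -0.1563 to 0.0299, Pou3f2 -0.1082 to 0.008, Unc5d -0.1525 to 0.022, Bcl11b -0.1234 to 0.0603, Fezf2 -0.0053 to 0.1075, Pcp4 -0.3193 to 0.0582, Tle4 -0.1519 to 0.0015, Tbr1 -0.2522 to 0.0797, Syt6 -0.1448 to 0.025, Ctgf -0.0294 to 0.1851, Nxph4 -0.2522 to 0.0591, Cplx3 -0.1227 to 0.2386, Nr4a2 -0.1841 to 0.019, Tox -0.0759 to 0.1589, Foxp1 -0.1503 to 0.0046, Thsd7a -0.2331 to 0.1199, Lmo4 -0.0113 to 0.0681. The cause was not tested. With all mice kept, layer medians moved by less than the spread between mice. That spread included A4 and was wide (0.1775 in layer 4), so this does not show that the medians were stable. Array weights took the median from -0.094 to -0.023 in upper layers and from -0.1236 to -0.0351 in layer 4. GC correction took them the other way, to -0.1146 and -0.1484. With a mouse left out, the spread still included the mouse, so nothing is read from the same comparison. Without A4 the median changed sign in layer 5 (-0.1023 to 0.0212), layer 6 (-0.0923 to 0.0015), the subplate (0.0137 to -0.1119) and several layers (-0.0286 to 0.0043). The subplate median also changed sign without A3 (-0.0334) and with array weights (-0.0412), and that of several layers without A2 (0.0173). No paired analysis was possible because the labels do not say which mice shared a litter. Scnn1a, Endou and Ntsr1 had the lowest control levels of the 31 genes, and depth limits such genes most. Rescaling moved the median of all genes by at most 0.0054.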
